A study of Mus musculus with 30 samples.

Results

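The effect of MePipHCA, a cholenamide made as a mimetic of desmosterol, was set against that of desmosterol itself in primary mouse macrophages. The comparison was chosen by treatment label and held 6 of the 30 libraries of the series, 3 of macrophages given MePipHCA at 1 uM and 3 of macrophages given desmosterol at 10 uM. The labelled doses differ, so in every difference below the compound and its dose cannot be told apart. Macrophages were drawn into the peritoneum of mice with thioglycollate, an irritant broth, and grown in RPMI-1640 with fetal bovine serum. Every group, vehicle included, first spent 24 h in lipid-deficient serum that held mevastatin (10 uM), a blocker of the enzyme that makes mevalonate, and mevalonate itself (50 uM), and then received the ligand for 18 to 20 h. All cells compared therefore carried the statin and the added mevalonate, and the vehicle is labelled DMSO / EtOH. Polyadenylated RNA was sequenced, and the labels give neither strain, sex nor age. Vehicle macrophages (3 libraries) and macrophages given DMHCA at 1 uM (3 libraries), a sister cholenamide with a dimethyl amide in place of the methylpiperidinyl amide of MePipHCA, served as references. The same MePipHCA and desmosterol treatments in primary hepatocytes (2 libraries each) served as the other cell type. Since no label ties a replicate to its own animal or culture, each p-value reflects the spread among these libraries alone, and that spread may be technical.

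Desmosterol is the last intermediate of one branch of cholesterol synthesis. In macrophages it is known to act on 2 sterol sensors. It activates the liver X receptors (LXR), nuclear receptors that switch on genes of cholesterol export, and it holds the SREBP transcription factors in the endoplasmic reticulum, which shuts down genes of cholesterol synthesis and uptake. The integrated stress response is a separate circuit, in which kinases that sense unfolded protein or amino acid shortage raise translation of the transcription factor ATF4, which in turn drives CHOP (Ddit3) and genes of amino acid supply.

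Levels below are CPM, read counts scaled to a common library size, as mean ± SD of 3 libraries, and differences are log2 fold changes ± SE from edgeR's quasi-likelihood test, with p-values adjusted by the Benjamini-Hochberg method over the 11544 genes tested. A gene was called at an adjusted p under 0.05, with no minimum fold. MePipHCA libraries held 4238339 to 6802146 counts and desmosterol libraries 9748589 to 13434106, so every MePipHCA library was shallower than every desmosterol library, and vehicle libraries held 10549773 to 15685961. Desmosterol replicate 2 stood apart from replicates 1 and 3 in its raw counts. A chi-square of its counts per degree of freedom was 7.69 and 7.77 against them, while replicates 1 and 3 differed from each other by 2.13. Vehicle replicates differed by 2.34 to 3.83 and MePipHCA replicates by 1.39 to 1.69. The measure grows with depth, so groups of unlike depth cannot be ranked by it. Principal components of the 18 macrophage libraries were taken over only the genes with the largest variance. The first component carried 44.9% of the variance of those genes. On it MePipHCA lay at 32.2 to 36.0, desmosterol at -10.8 to -4.2, vehicle at -16.4 to -9.9 and DMHCA at 1.2 to 8.6. Desmosterol replicates 1, 2 and 3 lay at -4.2, -10.8 and -9.1, so here replicate 1 was the furthest from the others. Macrophage markers were abundant in both groups, and the 12 with a row in the table summed to 16690 to 19430 CPM with desmosterol and 14060 to 14330 CPM with MePipHCA.

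MePipHCA and desmosterol differed in a large share of the transcriptome. Of all genes tested, 14.6% (1686 genes) were higher with MePipHCA and 15.9% (1833 genes) lower, 30.5% in either direction, and the median difference over all genes was 0.01. Without desmosterol replicate 2 the counts were 1564 higher and 1692 lower. Against vehicle, MePipHCA raised 17.2% of genes (1980 genes) and lowered 18.3% (2111 genes), and desmosterol raised 4.93% (569 genes) and lowered 4.57% (528 genes). Without vehicle replicate 2 the desmosterol counts dropped to 353 and 312. These comparisons with vehicle share the same 3 vehicle libraries, so below they are given side by side and the direct comparison of the compounds carries the test. The 14.6% and 15.9% are the background for the gene lists that follow.

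**Figure D1:**
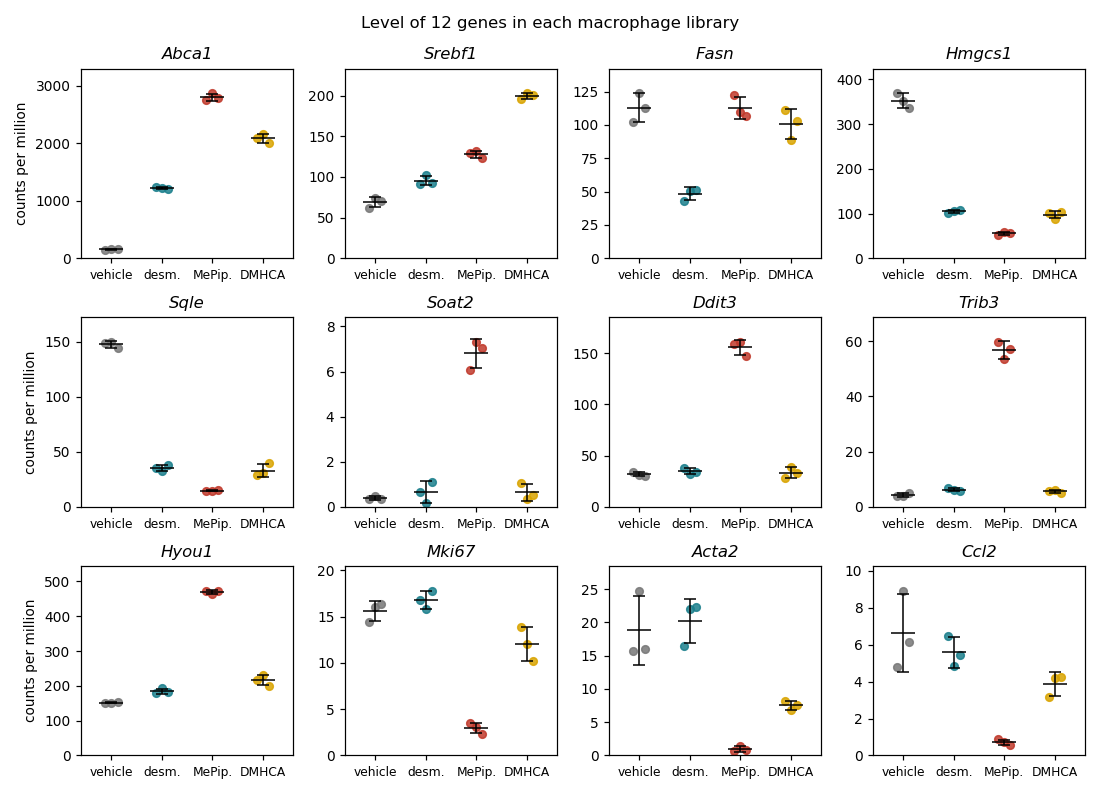
CPM (y axis, linear from 0, 1 scale per gene) of 12 genes in macrophages given vehicle, desmosterol (10 uM), MePipHCA (1 uM) or DMHCA (1 uM); each point is 1 of 3 libraries and the bar is the mean with its SD. Abca1, Hmgcs1 and Sqle step further from vehicle with MePipHCA than with desmosterol, Ddit3, Trib3, Soat2 and Hyou1 are high in the MePipHCA libraries, Fasn is low in the desmosterol libraries, and Mki67, Acta2 and Ccl2 are low in the MePipHCA libraries.

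Genes of cholesterol efflux and lipid transport rose with both compounds, and most of those that separated the compounds were higher with MePipHCA. Of 18 LXR targets on the list, 15 were tested, and 9 were higher and 1 lower with MePipHCA than with desmosterol, with a median difference of 0.37. The same list had 13 members higher than vehicle with MePipHCA (median 0.88) and 12 with desmosterol (median 0.83), and none lower with either. Abca1 (chr4:53030789-53159895 in mm10), the membrane pump that loads cholesterol onto apolipoprotein A-I, read 139.9, 161.1 and 158.8 CPM in the vehicle libraries. Desmosterol took it to 1234, 1230 and 1200 CPM and MePipHCA to 2752, 2869 and 2785 CPM. The 3 groups were fully apart, and MePipHCA exceeded desmosterol by 1.20 ± 0.05 (adjusted p = 3.34e-23, edgeR), a 2.29-fold difference. Its partner Abcg1, which passes cholesterol to HDL, went from 244 ± 13 CPM in vehicle to 934 ± 17.6 with desmosterol and 1727 ± 34.6 with MePipHCA, a difference of 0.89 ± 0.05 between the compounds. Mylip, a ubiquitin ligase of lipoprotein uptake, went from 14.1 ± 0.384 CPM to 93.5 ± 1.49 and 158.7 ± 1.96 CPM, a difference of 0.76 ± 0.06. In each of these genes all 3 MePipHCA libraries lay above all 3 desmosterol libraries.

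Other LXR targets separated the compounds in different ways. Pltp, the phospholipid transfer protein, read 596, 670.2 and 574 CPM with desmosterol and 1736, 1681 and 1667 CPM with MePipHCA, a difference of 1.46 ± 0.05. Arl4c, a small GTPase of cholesterol trafficking, differed by 1.40 ± 0.06. Apoc2, the cofactor of lipoprotein lipase, changed by 0.24 ± 0.20 with desmosterol against vehicle (adjusted p = 0.525, edgeR) and by 1.98 ± 0.18 with MePipHCA, and the compounds differed by 1.74 ± 0.18. Apoe behaved in the same way at a smaller size, with -0.04 ± 0.05 for desmosterol, 0.33 ± 0.05 for MePipHCA and 0.37 ± 0.05 between them. For a further set the compounds were not called different, and the intervals show how large a difference these libraries allow. Lpl, the secreted triglyceride lipase, read 2772 ± 106 CPM in vehicle, 4979 ± 128 with desmosterol and 5112 ± 136 with MePipHCA, and the 95% interval of the difference between compounds ran from -0.05 to 0.13. For the apoptotic cell receptor Mertk the interval was -0.09 to 0.12 and for the scavenger receptor Cd36 it was -0.06 to 0.12. Nr1h3, which encodes LXR alpha, was the 1 member lower with MePipHCA, at 70.5 ± 1.65 CPM against 87.1 ± 3.28 CPM with desmosterol and 69.8 ± 4.22 CPM in vehicle, a difference of -0.31 ± 0.07. Apoe, Lpl, Mertk, Cd36 and Nr1h3 were chosen after their values were seen.

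Several genes of the lipogenic arm differed between the compounds. SREBP-1c, encoded by Srebf1, is itself an LXR target and drives genes of fatty acid synthesis, and its protein is released from the same membrane compartment as SREBP-2. Srebf1 read 69.0 ± 6.10 CPM in vehicle, 95.5 ± 5.89 with desmosterol and 128.2 ± 4.28 with MePipHCA, a difference of 0.42 ± 0.06 between the compounds. Fasn, the fatty acid synthase, read 102.1, 123.7 and 112.5 CPM in vehicle, 42.6, 50.8 and 51.3 CPM with desmosterol and 122.4, 109.7 and 106.5 CPM with MePipHCA. Desmosterol lowered it by 1.23 ± 0.07 on the log2 scale, whereas MePipHCA libraries overlapped vehicle, with a difference of -0.01 and a 95% interval of -0.15 to 0.14. The direct difference between the compounds was 1.22 ± 0.08 (adjusted p = 3.01e-16, edgeR). Scd1, the desaturase that makes oleate, fell with desmosterol to 11.8 ± 1.42 CPM and rose with MePipHCA to 39.6 ± 1.47 CPM from 22.1 ± 1.70 CPM in vehicle, so that the compounds moved it in opposite directions and differed by 1.76 ± 0.10.

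Fatty acid genes did not move as a block. Of 14 tested members of the list, 5 were higher with MePipHCA and 4 lower, with a median difference of -0.09. Against vehicle, desmosterol lowered 9 and raised 2 (median -0.58), and MePipHCA lowered 6 and raised 5 (median -0.21). The members lower with MePipHCA included the polyunsaturated desaturase Fads2, at 2.22, 4.06 and 3.74 CPM with desmosterol and 1.30, 0.236 and 1.17 CPM with MePipHCA, a difference of -1.81 ± 0.43. The elongase Elovl6, chosen after its values were seen, differed by -1.20.

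Cholesterol synthesis was lowered by both compounds and mostly further by MePipHCA. In the mevalonate arm, which runs from acetyl-CoA to squalene, all 9 genes were tested, 8 were below vehicle with each compound, and 5 were lower and 1 higher with MePipHCA than with desmosterol (median -0.59). After squalene, all 11 genes were below vehicle with each compound, by a median of -1.64 with desmosterol and -2.30 with MePipHCA, and 10 of 11 were lower with MePipHCA than with desmosterol (median -0.77). Hmgcs1, the enzyme that makes HMG-CoA, read 352 ± 16.6 CPM in vehicle, 105 ± 2.82 with desmosterol and 55.8 ± 2.72 with MePipHCA, a difference of -0.91 ± 0.07. Sqle, the squalene epoxidase, read 35.3, 32.4 and 38.5 CPM with desmosterol and 14.1, 14.6 and 15.3 CPM with MePipHCA, a difference of -1.26 ± 0.11. Fdps, Pmvk and Cyp51, enzymes of farnesyl pyrophosphate, mevalonate and lanosterol processing, differed by -1.25, -0.74 and -1.21. Fdps lost its call once all libraries were thinned to the depth of the shallowest (adjusted p = 0.0713, edgeR). Fdft1, the squalene synthase, was the 1 member higher with MePipHCA (0.29 ± 0.05), and Mvd (0.13), chosen like Fdft1 after its values were seen, was not called.

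Genes around SREBP-2 moved the same way. The cytosolic sterol carrier Stard4 was lower with MePipHCA, with a difference of -1.60, and Insig1, the anchor that retains SREBP and is itself an SREBP target, read 42.8 ± 2.78 CPM with desmosterol and 32.7 ± 5.44 CPM with MePipHCA, a difference of -0.37 ± 0.09. In total 6 of 10 tested genes of SREBP-2, its processing and sterol uptake were lower with MePipHCA and none higher, with a median of -0.56.

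**Figure D2:**
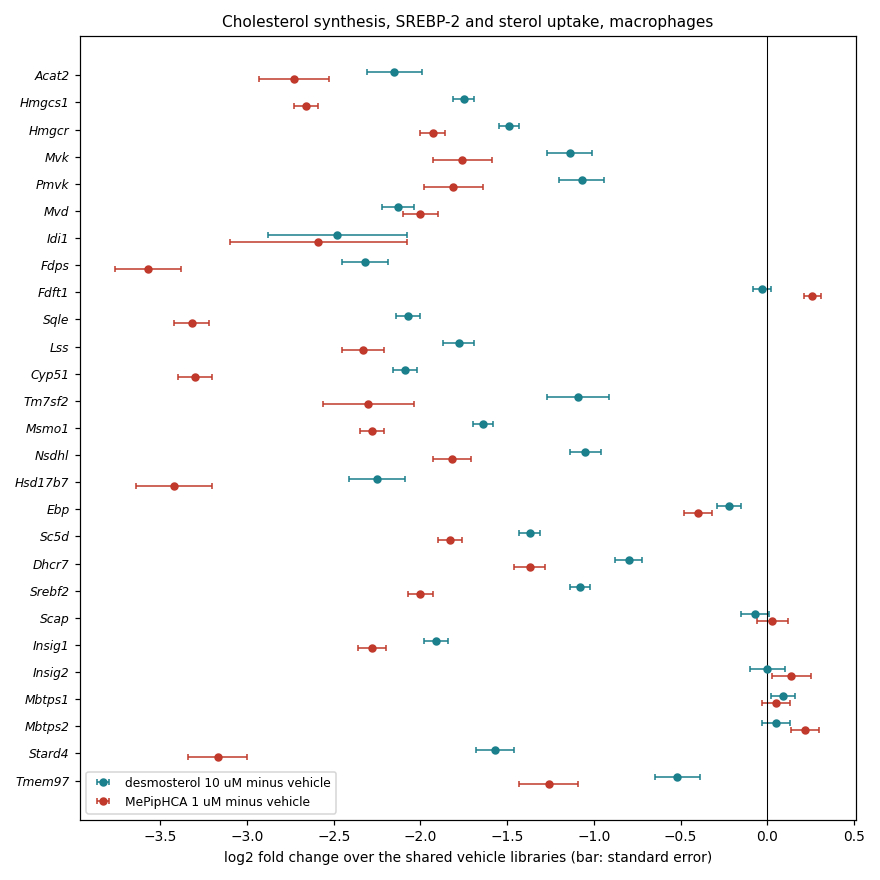
Log2 fold change over vehicle (x axis, bar: SE) of each tested gene of cholesterol synthesis, SREBP-2 and sterol uptake (1 row per gene), with 1 point for desmosterol and 1 for MePipHCA, which share the same 3 vehicle libraries; 3 members are not reported and not drawn. The MePipHCA point lies left of the desmosterol point for most genes, as for Sqle (-3.32 and -2.07) and Hmgcs1 (-2.66 and -1.75), and right of it for Fdft1 (0.26 and -0.03).

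A core of the sterol regulatory element, TCACNCCAC on either strand, was searched in the RefSeq promoter windows (GRCm38.p6, 250 bases before to 50 after the start site). It was in 1.24% of all 32851 windows and 1.33% of the 9235 tested genes that matched, in 1 of 6 matched genes of the mevalonate arm, and in none of 9 post-squalene genes or 8 SREBP-2 and uptake genes. The 1 match is shown because Hmgcs1 was among the lowered genes. The stretch lies at chr13:119690189-119690247 on the plus strand, upstream of the start, and the capitals mark the motif.
Hmgcs1: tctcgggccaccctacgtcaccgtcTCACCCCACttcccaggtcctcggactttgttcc
A match of letters is a description and not a bound site.

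Soat2 was raised by MePipHCA and not called with desmosterol. Soat2 (chr15:102150575-102163436) encodes an acyltransferase that esterifies cholesterol for storage or secretion. It was near the lower limit of detection in vehicle (0.3691, 0.4998 and 0.3376 CPM) and with desmosterol (0.676, 0.153 and 1.11 CPM), and read 6.06, 7.31 and 7.04 CPM with MePipHCA. The MePipHCA libraries stood above all others, and the compounds differed by 3.45 ± 0.38 (adjusted p = 1.23e-09, edgeR), 11-fold. DMHCA left it at 0.644 ± 0.362 CPM. Elsewhere among 16 tested genes of esterification, storage and lysosomal sterol handling, 4 were higher and 4 lower with a median of 0.04. The sterol transporter Gramd1b was higher by 0.80 ± 0.07 and the sterol 27-hydroxylase Cyp27a1 lower by 0.75 ± 0.11, on the log2 scale. The count of higher members was 2 under upper quartile scaling, with no filter on low counts, in a fit of the compared groups only, and without desmosterol replicate 3.

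Most genes of the stress response through ATF4 and CHOP were higher with MePipHCA than with desmosterol. Of 15 tested members, 13 were higher with MePipHCA and none lower, and the median difference was 1.31 against 0.01 for all genes. Against vehicle, 12 rose with MePipHCA (median 1.18), and with desmosterol 4 rose and 2 fell (median 0.13). Ddit3 (chr10:127290793-127296288), which encodes CHOP, read 34.4, 31.5 and 30.0 CPM in vehicle, 37.9, 32.3 and 34.2 with desmosterol and 159, 160.9 and 147.1 with MePipHCA. Desmosterol and vehicle libraries overlapped, and all 3 MePipHCA libraries were above them. The compounds differed by 2.16 ± 0.08 (adjusted p = 4e-23, edgeR), 4.47-fold. Trib3 (chr2:152337425-152344060), a pseudokinase target of CHOP, read 6.86, 6.12 and 5.67 CPM with desmosterol and 59.8, 53.5 and 57.3 CPM with MePipHCA, a difference of 3.19 ± 0.14. Chac1 (chr2:119351242-119354327), a glutathione-degrading enzyme, went from 0.676, 0.995 and 0.405 CPM to 11.04, 8.963 and 12.32 CPM, a difference of 3.90 ± 0.33. Both genes were separated from desmosterol in every library.

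Members of this circuit differed in whether desmosterol also moved them. Asns (chr6:7675171-7693182), the asparagine synthetase, was raised by desmosterol over vehicle by 0.96 ± 0.18, to 5.70, 10.3 and 7.99 CPM, and by MePipHCA by 3.37 ± 0.16, to 45.3, 42.7 and 42.1 CPM. Atf4 itself, chosen after its values were seen, rose by 0.24 ± 0.06 with desmosterol and by 1.55 ± 0.06 with MePipHCA. Ddit3 was not called with desmosterol, with a 95% interval of -0.06 to 0.30 for its change over vehicle. Trib3 passed with desmosterol at 0.53 ± 0.17 (adjusted p = 0.0451, edgeR), and this call was lost in 8 of its alternatives (adjusted p up to 0.228). The stress regulators Sesn2 and Nupr1, also chosen after their values were seen, were higher with MePipHCA than with desmosterol by 2.05 and 1.38.

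**Figure D3:**
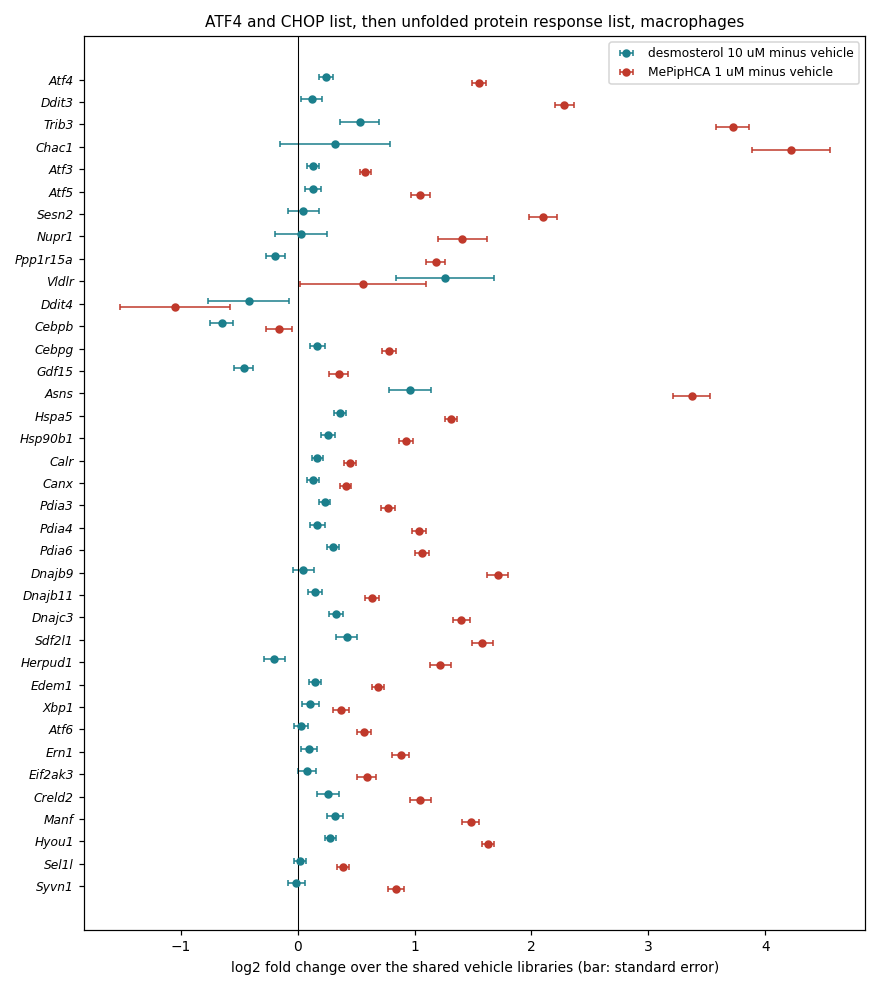
Log2 fold change over vehicle (x axis, bar: SE) of each tested gene of the ATF4 and CHOP list and of the unfolded protein response list (1 row per gene), with 1 point for desmosterol and 1 for MePipHCA, which share the same 3 vehicle libraries. Most desmosterol points lie near 0 with the MePipHCA points to their right, as for Chac1 (0.32 and 4.22), Trib3 (0.53 and 3.72) and Ddit3 (0.12 and 2.28).

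Every tested member of the unfolded protein response list was higher with MePipHCA. All 22 chaperones and sensors were called, with a median of 0.77, and against vehicle all 22 rose with MePipHCA (median 0.90) and 11 with desmosterol (median 0.16). Hyou1, a chaperone of the endoplasmic reticulum, read 178.5, 192.6 and 181.1 CPM with desmosterol and 471.9, 463.9 and 473.9 CPM with MePipHCA, a difference of 1.35 ± 0.05. Dnajb9, a cofactor of BiP, differed by 1.67 ± 0.09, and Herpud1, a part of the degradation machinery of the same compartment, by 1.42 ± 0.09. BiP itself (Hspa5), chosen after its values were seen, read 949 ± 3.87 CPM with desmosterol and 1837 ± 55.3 CPM with MePipHCA. Without desmosterol replicate 2 the count was 21. Under a test against a 1.5-fold minimum it was 11 of 22.

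Genes of amino acid supply rose in the same libraries. Among 11 tested amino acid transporters 6 were higher and 1 lower (median 0.47), and the lower count was 0 without desmosterol replicate 3 or MePipHCA replicate 1 or 3. Slc7a5, the large neutral amino acid carrier, read 7.73, 6.81 and 8.09 CPM with desmosterol and 31.8, 27.1 and 27.3 CPM with MePipHCA, a difference of 1.93 ± 0.14. Slc38a2 and Slc7a1, carriers of neutral and cationic amino acids, differed by 1.77 ± 0.06 and 1.57. In serine, one-carbon and proline synthesis 8 of 13 tested genes were higher and 1 lower (median 0.44). Mthfd2, the mitochondrial folate enzyme, was raised by desmosterol as well, from 12.95 ± 1.08 to 30.76 ± 2.67 CPM, and stood at 120.4 ± 2.57 CPM with MePipHCA, a difference of 1.96 ± 0.09 between the compounds. Pck2, a mitochondrial enzyme that feeds phosphoenolpyruvate to biosynthesis, was at 17.6 ± 0.744 CPM in vehicle, 19.7 ± 1.52 with desmosterol and 65.4 ± 2.10 with MePipHCA (1.73 ± 0.10). Aldh18a1, which starts proline synthesis, differed by 1.31 ± 0.13. Of 21 aminoacyl-tRNA synthetases, the enzymes that charge tRNAs, 16 were higher with MePipHCA and none lower (median 0.40), led by Cars (0.97 ± 0.09), Sars (0.95 ± 0.06) and Aars (0.90 ± 0.07).

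The core of the C/EBP-ATF response element, TGATGNAA on either strand, was searched in the same promoter windows. It was in 3.97% of all windows and 2.79% of matched genes tested in macrophages. It was in 7 of 17 matched genes of the ATF4 and CHOP list (41.2%), 5 of 14 tRNA synthetases (35.7%), 3 of 9 transporters (33.3%) and 3 of 13 genes of serine, one-carbon and proline synthesis (23.1%). Among matched members called higher with MePipHCA the shares were 5 of 13 (38.5%), 5 of 10 (50%), 2 of 5 (40%) and 2 of 7 (28.6%), in the same order. These are described as shares, with no test. Members that hold the motif but were not called higher are not displayed. The stretches below belong to genes that were higher with MePipHCA, are written on the strand of the gene and lie upstream of its start, with the motif in capitals. Their positions in GRCm38.p6 are chr2:119351024-119351081 (plus strand) for Chac1, chr1:191183411-191183468 (minus) for Atf3, chr7:126625548-126625605 (minus) for Nupr1, chr6:7693210-7693257 (minus) for Asns, chr3:50443647-50443704 (minus) for Slc7a11 and chr14:55540138-55540195 (plus) for Pck2.
Chac1: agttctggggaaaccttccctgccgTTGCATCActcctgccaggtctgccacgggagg
Atf3: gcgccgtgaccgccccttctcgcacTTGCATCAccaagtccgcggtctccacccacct
Nupr1: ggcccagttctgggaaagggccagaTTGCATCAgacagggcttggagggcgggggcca
Asns: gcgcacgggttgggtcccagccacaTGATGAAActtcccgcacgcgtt
Slc7a11: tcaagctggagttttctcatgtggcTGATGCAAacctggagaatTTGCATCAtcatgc
Pck2: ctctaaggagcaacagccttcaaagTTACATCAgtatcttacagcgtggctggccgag
Chac1, Atf3 and Nupr1 carry the same 8 letters, read on the strand opposite to the searched form, and Slc7a11 has a match in each orientation. Atf3 and the cystine carrier Slc7a11, chosen for this display after their values were seen, differed between the compounds by 0.45 and 0.47.

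Proliferation genes were lower with MePipHCA than with desmosterol or vehicle. Of 26 tested genes of the cell cycle and mitosis, 19 were lower with MePipHCA and none higher (median -1.01). Against vehicle MePipHCA lowered 19 (median -1.12). For desmosterol against vehicle edgeR called 0 of the 26 (median 0.09), with 2 at an unadjusted p under 0.05, and DESeq2 and limma voom also called 0. Mki67, a marker of cycling cells, read 14.4, 16.1 and 16.4 CPM in vehicle, 16.8, 15.8 and 17.8 with desmosterol and 3.47, 3.07 and 2.35 with MePipHCA, a difference of -2.53 ± 0.21 (adjusted p = 2.94e-13, edgeR). Rrm2, a subunit of ribonucleotide reductase, read 2.51, 2.83 and 2.43 CPM with desmosterol and 0.650, 0.236 and 0.293 CPM with MePipHCA (-2.71 ± 0.54). The mitotic checkpoint kinase Bub1 had 58 counts with desmosterol and 2 with MePipHCA, a depth-scaled ratio of 13.6 with an exact 95% counting interval of 3.6 to 115. With all libraries thinned to 1 depth the count of lowered cell cycle genes was 12.

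Markers of stromal and mesothelial cells moved in the same libraries as the cell cycle genes. All 9 tested of 12 fibroblast and smooth muscle markers were lower with MePipHCA (median -1.55) and for desmosterol against vehicle 0 of 9 were called by edgeR, DESeq2 or limma voom, with 0 at an unadjusted p under 0.05 in edgeR (median 0.03). Their summed level was 1204 to 1788 CPM in vehicle, 1139 to 1784 with desmosterol, 804.2 to 1141 with DMHCA and 385.9 to 446 with MePipHCA. Of 6 mesothelial markers 5 were lower (median -1.77), with sums of 25.7 to 34.7 CPM with desmosterol and 8.26 to 10.7 with MePipHCA, and no marker of either list was at 0. Acta2, smooth muscle actin, read 15.7, 24.8 and 16.0 CPM in vehicle, 16.42, 22.03 and 22.26 with desmosterol and 0.650, 1.42 and 0.880 with MePipHCA, a difference of -4.38 ± 0.32 (adjusted p = 1.89e-14, edgeR). Desmosterol and vehicle overlapped, and every MePipHCA library lay below both. Fewer cells of a type and less RNA per cell cannot be told apart in bulk RNA, and the part of these cells in the fall of the cell cycle genes was not tested.

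Macrophage markers moved less and in both directions. Of 11 tested markers 2 were higher with MePipHCA and 5 lower, with a median of -0.10. Csf1r, the receptor for the macrophage growth factor CSF-1, read 1006, 1115 and 985.1 CPM with desmosterol and 703.6, 685.4 and 699 CPM with MePipHCA (-0.57 ± 0.05), with vehicle at 1282 ± 13.6 CPM. Emr1, which encodes F4/80 and was chosen after its values were seen, differed by -1.07 ± 0.06. Without desmosterol replicate 2 the count of higher markers was 1. Among markers of other leukocytes, those of dendritic cells summed to 822.7 to 882 CPM with desmosterol and 691.3 to 746.3 CPM with MePipHCA, nearly all of it from Itgax (857.7 and 710.5 CPM, named after its values were seen), an integrin gene that macrophages also express, with Xcr1 at 0 in both groups and Flt3 at 0 with MePipHCA. All other leukocyte lists summed to less than the dendritic cell list in both groups. Eosinophil markers gave 8.57 to 10.72 CPM with desmosterol and 8.88 to 11.88 with MePipHCA. B cell markers gave 1.74 to 3.44 CPM with desmosterol and 1.52 to 2.35 with MePipHCA, T and NK cell markers 2.37 to 3.28 and 0.650 to 0.944, and neutrophil markers 9.71 to 13.2 and 6.60 to 9.10, with the granule genes S100a9 and Mpo at 0 in both. The T and NK, neutrophil and dendritic cell lists had 1 tested member each, called lower with MePipHCA by edgeR (-3.05, -0.51 and -0.27). The neutrophil call was lost under DESeq2, limma voom and thinning, among other alternatives. The 1 tested eosinophil marker was not called, and no B cell marker was tested. Endothelial markers gave 137.4 to 164.5 CPM with desmosterol and 146.9 to 159.3 with MePipHCA, with Emcn at 0 in both groups and Tek at 0 with desmosterol. Only 2 of 6 members were tested, and neither was called.

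**Figure D4:**
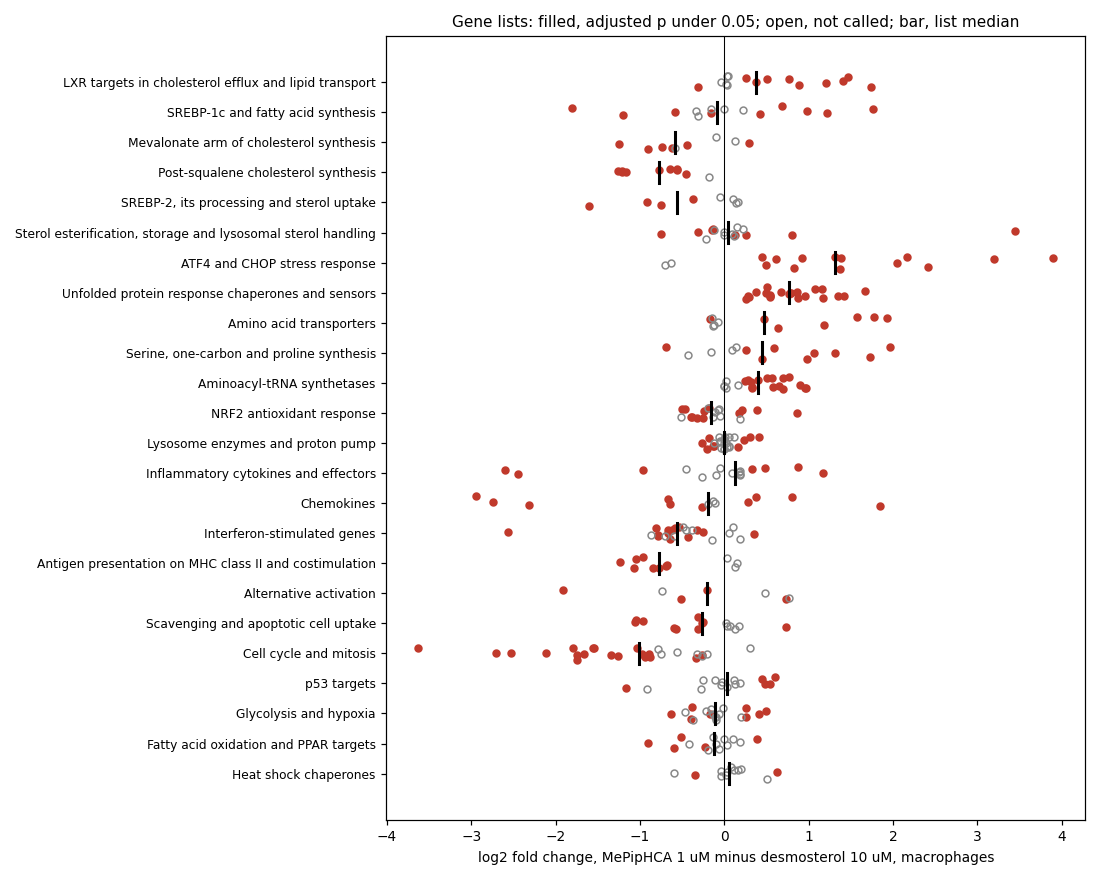
Log2 difference between MePipHCA and desmosterol in macrophages (x axis) for every tested gene of 24 pathway lists (1 row per list); filled points passed an adjusted p of 0.05, open points did not, and the bar is the median of the list. The ATF4 and CHOP list has a median of 1.31 and the unfolded protein response list 0.77, while the cell cycle list lies at -1.01 and the MHC class II list at -0.78. Medians are over all tested members, and 3 members that are not reported have no point.

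Genes of the interferon response and of antigen presentation were among those lower with MePipHCA than with desmosterol. Of 24 tested interferon-stimulated genes 13 were lower and 1 higher (median -0.56), and against vehicle 19 fell with MePipHCA (median -0.86) and 6 with desmosterol (median -0.31). The antiviral synthetase Oas2 read 5.72, 10.1 and 8.36 CPM in vehicle, 3.19, 4.82 and 4.55 with desmosterol and 1.08, 0.472 and 0.587 with MePipHCA, a difference of -2.56 ± 0.41. Oasl2 differed by -0.79 ± 0.11. Groups did not overlap for either gene. Without MePipHCA replicate 3 the count of lower interferon genes was 7, and without MePipHCA replicate 2 that of higher ones was 0. Under a test against a 1.5-fold minimum 1 interferon gene was lower and 0 were higher. In antigen presentation on MHC class II and costimulation, 8 of 11 tested genes were lower and none higher (median -0.78), with none lower for desmosterol against vehicle (median 0.15). H2-Aa read 42.4, 42.0 and 38.1 CPM with desmosterol and 18.4, 23.4 and 17.6 with MePipHCA (-1.07 ± 0.12), and H2-Ab1 differed by -1.05 ± 0.11. Ciita, the master regulator of these genes, differed by -1.24 and was not called under DESeq2 (adjusted p = 0.0534), limma voom (0.0965) or 7 other alternatives.

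Inflammatory genes split by member. Il1a, an alarmin of the interleukin 1 family, rose with both compounds, from 19.4 ± 1.98 CPM in vehicle to 58.5 ± 2.21 with desmosterol and 106.4 ± 4.57 with MePipHCA, a difference of 0.87 ± 0.08. The interleukin 18 inhibitor Il18bp followed, at 5.28 ± 0.184, 19.1 ± 1.22 and 43.1 ± 2.64 CPM (1.17 ± 0.10). The gelatinase Mmp9 read 21.9, 23.2 and 20.1 CPM with desmosterol and 3.68, 4.25 and 3.08 CPM with MePipHCA (-2.60 ± 0.19). Both directions occurred on this list, with 4 of 16 tested members higher and 3 lower (median 0.13), beside 14.6% and 15.9% of all genes. Ptgs2, the inducible cyclooxygenase, differed by -2.45 ± 0.32. The monocyte chemoattractant Ccl2 read 6.47, 4.82 and 5.46 CPM with desmosterol and 0.866, 0.708 and 0.587 CPM with MePipHCA (-2.95 ± 0.40), within a list of 13 tested chemokine genes of which 4 were higher and 6 lower (median -0.19). In thinned libraries 2 chemokine genes were lower. Cxcl10 had 46 counts with desmosterol and 3 with MePipHCA, a ratio of 7.18 with an exact counting interval of 2.31 to 36.1. The stromal and mesothelial sums given above moved with these chemokines too, and their part was not tested.

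Clearance genes were lower with MePipHCA in 9 of 15 tested members and higher in 1 (median -0.27). Without desmosterol replicate 2 the higher members numbered 3. The complement subunit C1qa read 174.3, 164 and 187.9 CPM with desmosterol and 86.4, 82.1 and 85.1 CPM with MePipHCA (-1.05 ± 0.09). The scavenger receptor Stab1 (-1.06 ± 0.08) and Gas6, the bridging ligand of Mertk (-0.96 ± 0.08), were lower by similar amounts. Vehicle levels of these 3 genes lay among the desmosterol levels or next to them, at 169 ± 12.8, 136 ± 6.36 and 139.7 ± 3.32 CPM. Among genes of alternative activation 1 of 7 tested was higher and 3 lower. The lectin Clec10a fell to 1.22 ± 0.375 CPM with MePipHCA against 4.88 ± 0.965 CPM with desmosterol, and the transglutaminase Tgm2 stood at 722 ± 51.8 against 435 ± 47.2 CPM.

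Lists of other stresses and of metabolism had members called in both directions. NRF2 targets had 4 higher and 8 lower of 20, with the autophagy receptor Sqstm1 at 0.86 ± 0.05 and heme oxygenase Hmox1 at -0.50 ± 0.05. Heat shock chaperones had 1 higher and 1 lower of 12, lysosomal genes 4 higher and 5 lower of 25, and p53 targets 4 higher and 1 lower of 15, with Mdm2 at 0.60 ± 0.06 and Sesn1 at -1.17 ± 0.08. Glycolysis and hypoxia genes had 4 higher and 4 lower of 19, and genes of fatty acid oxidation and PPAR response 1 higher and 4 lower of 14, among them the mitochondrial carrier Ucp2 (-0.60 ± 0.05) and the lipid chaperone Fabp4 (-0.52 ± 0.06). The medians of these lists ran from -0.16 to 0.05, beside 0.01 for all genes, and the 8 lower NRF2 targets were a larger share than the 15.9% of all genes. The lower lysosomal genes numbered 2 without desmosterol replicate 2 and 3 without MePipHCA replicate 1, 2 or 3, and the higher heat shock genes numbered 2 without desmosterol replicate 2.

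Outside all lists, the 12 higher genes picked by size of difference ranged from 1.25 (Bach2os) to 1.77 (Fgfrl1). Fbxo32, a ubiquitin ligase known from muscle atrophy, read 304.5, 306.2 and 319.6 CPM with desmosterol and 827.3, 806.9 and 851.2 CPM with MePipHCA, with vehicle at 245 ± 6.60 CPM. It differed by 1.42 ± 0.05, and libraries that do not overlap were a condition for the choice of these genes. Ifrd1, a transcriptional coregulator, was at 50.3 ± 2.82 CPM with desmosterol, 53.1 ± 1.63 in vehicle and 151.8 ± 10.0 with MePipHCA (1.59 ± 0.07). Both compounds raised Cd38, which breaks down NAD outside the cell, and Lbp, a binding protein for bacterial lipopolysaccharide. Cd38 read 2.92 ± 0.424, 12.9 ± 0.885 and 34.2 ± 3.39 CPM in vehicle, desmosterol and MePipHCA (1.40 ± 0.12), and Lbp 1.57 ± 0.283, 5.76 ± 1.06 and 17.9 ± 2.68 CPM (1.67 ± 0.18). The 12 lower genes ranged from -2.72 (Col6a3) to -3.51 (Pcolce) and included matrix and adhesion genes such as Slit3, Adam12, Cdh2 and Parva. The actin bundler Fscn1 read 25.2, 34.1 and 23.6 CPM with desmosterol and 1.73, 2.59 and 3.52 with MePipHCA (-3.34 ± 0.24), and the chemokine Cxcl13 differed by -3.10 ± 0.44. The fall in fibroblast and mesothelial markers moved with these lower genes, and its part was not tested.

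DMHCA was the 1 related cholenamide tested at the matched dose of 1 uM for the same time, so 1 pair was compared. Between MePipHCA and DMHCA 10.7% of genes were higher with MePipHCA and 12.1% lower. The stress genes separated the pair about as they separated MePipHCA from desmosterol. Ddit3 read 28.6, 39.3 and 32.6 CPM with DMHCA, around the vehicle levels, and MePipHCA exceeded it by 2.20 ± 0.09 (adjusted p = 1.1e-21, edgeR). Trib3 differed by 3.36 ± 0.16, Chac1 by 4.67 ± 0.43 and Asns by 2.79 ± 0.17. Of the ATF4 and CHOP list 13 of 15 tested genes were higher with MePipHCA than with DMHCA (median 1.22), and of the unfolded protein response list 21 of 22 (median 0.54). Soat2 differed by 3.49 ± 0.45. The fibroblast markers were lower than with DMHCA as well, 9 of 9 tested (median -1.01). So were 9 of 11 post-squalene genes (median -0.62) and 5 of 9 genes of the mevalonate arm (median -0.64), with none higher. Clearance genes were lower in 11 of 15 tested members and MHC class II genes in 7 of 11, with 1 higher on each list. Cell cycle genes were lower in 8 of 26 (median -0.70) and higher in none. Against the deeper desmosterol libraries 19 of the 26 were lower.

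LXR targets separated the 2 amides less and in both directions. On that list 5 genes were higher and 4 lower with MePipHCA than with DMHCA, with a median of 0.02. Abca1 differed by 0.43 ± 0.05 and Abcg1 by 0.34 ± 0.05, with DMHCA at 2086 ± 81.1 and 1369 ± 54.3 CPM. Mylip missed the threshold, with a 95% interval of 0.02 to 0.26 (adjusted p = 0.0836, edgeR). Srebf1 went the other way, with 199.9 ± 3.96 CPM for DMHCA and a difference of -0.65 ± 0.06. For Fasn the interval was 0.01 to 0.32, for Scd1 -0.33 to 0.04, for Cd38 -0.04 to 0.45 and for Lbp -0.21 to 0.47, and none of these 4 was called. Without DMHCA replicate 1 Fasn was called (0.23, adjusted p = 0.0401).

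In hepatocytes the same pair of treatments differed in fewer genes. MePipHCA exceeded desmosterol in 2.6% of 13176 genes (342) and fell short in 3.33% (439), with 2 libraries a group, 123 to 173 and 208 to 284 genes once 1 library was left out, and 622 and 696 in a fit of the compared groups only. The difference between cell types was tested as an interaction over 13700 genes in all 30 libraries, of which 10.0% passed in either direction. Cell type is confounded with the culture medium (Hepatozyme for hepatocytes) and with the dates in the titles, which cannot be told apart. In hepatocytes Abca1 read 190 and 158.3 CPM in vehicle, 201.2 and 204 with desmosterol and 100.2 and 102.6 with MePipHCA. All MePipHCA libraries thus lay below those of vehicle and of desmosterol (adjusted p = 2.42e-08 between the compounds, edgeR). In macrophages Abca1 was higher with MePipHCA than with desmosterol by 1.20, an interaction of 2.21 ± 0.10 (adjusted p = 2.93e-20, edgeR). On the LXR list 4 of 18 genes were lower in hepatocytes and none higher (median -0.38), and 9 passed the interaction with the macrophage difference the larger.

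Part of the stress response appeared in hepatocytes, mostly at a smaller size. Ddit3 read 20.8 and 17.7 CPM with desmosterol and 57.2 and 35.5 CPM with MePipHCA (1.26 ± 0.19), Trib3 differed by 0.89 ± 0.13 and Chac1 by 0.76 ± 0.14, each less than in macrophages by the interaction test. That test lost its call for Ddit3 without hepatocyte MePipHCA replicate 2 (adjusted p = 0.0621, edgeR). On the ATF4 and CHOP list 7 of 18 genes were higher and none lower in hepatocytes (median 0.41). Of these 18, 10 passed the interaction toward macrophages and 1 toward hepatocytes. In serine, one-carbon and proline synthesis 6 of 15 genes were higher and 1 lower in hepatocytes, with differences up to 2.57. There 5 genes passed the interaction toward macrophages and 2 toward hepatocytes. Amino acid transporters had 5 of 14 higher and none lower, with 4 and 2 past the interaction. The unfolded protein response differed more plainly, with 2 of 22 genes higher and 1 lower (median 0.05), and with 18 of 22 past the interaction toward macrophages. Hyou1 illustrates it, at 112.6 and 131.1 CPM with desmosterol and 119 and 121.8 CPM with MePipHCA, an interaction of 1.38 ± 0.11. Cell cycle genes were lower with MePipHCA in hepatocytes too, 14 of 27 (median -0.78), with Rrm2 at 91.7 and 98.6 CPM with desmosterol against 32.7 and 43.1 CPM. In hepatocytes 9 of 11 post-squalene genes were lower with MePipHCA (median -0.51).

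**Figure D5:**
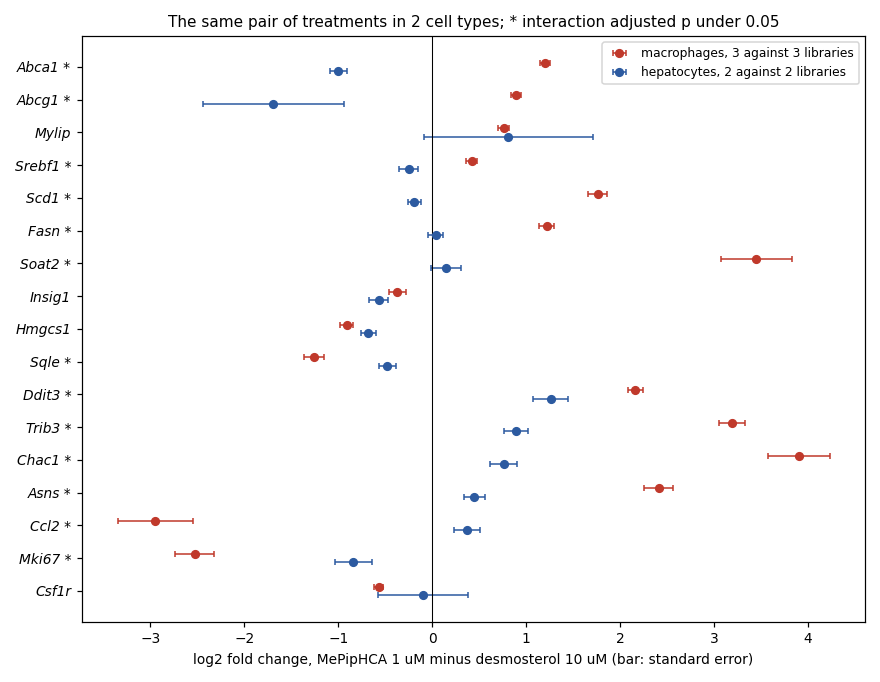
Log2 difference between MePipHCA and desmosterol (x axis, bar: SE) for 17 genes (1 row each) in macrophages (3 libraries a group) and in hepatocytes (2 libraries a group); an asterisk marks a difference between cell types that passed an adjusted p of 0.05. Abca1 lies right of 0 in macrophages (1.20) and left of 0 in hepatocytes, and Trib3 lies at 3.19 and 0.89.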

How the data were processed

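STAR (alignment) and HOMER (counting) on mm10 are named in the submitters' processing notes, with no versions. Per the file headers, the deposited tables hold raw counts over exons, condensed to a single transcript for each gene and not adjusted, with a column for each library. No strand option is stated, so genes that overlap on opposite strands may share reads. Every value column mapped to a labelled sample.

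Testing used the quasi-likelihood fit of edgeR 4.0.16 (R 4.3.3). filterByExpr left 11544 of 24063 genes in macrophages and 13176 of 24453 in hepatocytes, TMM scaled the libraries, and group means were fitted over all 18 macrophage or 12 hepatocyte libraries (12 and 6 residual degrees of freedom). The interaction used all 30 libraries, with tables joined by symbol. The SE came from the fold change and the F statistic. Intervals on counts cover counting error only. The fits were tested on simulated data. Promoter sequences are RefSeq's (GRCm38.p6).

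Named genes were 20 fixed symbols, the 3 members of each pathway list with the largest called difference, and, outside the lists, 12 genes in each direction with non-overlapping replicates and a mean of at least 5 CPM in the higher group. The comparison, the gene lists and this rule were chosen with earlier results of these data known. Some genes under the rule are not reported here, and list counts and medians still include them. Genes named beyond it are said to be chosen after their values were seen. Alternatives were other scalings, no filter, DESeq2 1.42.0, voom in limma 3.58.1, thinning, a replicate block, a 1.5-fold minimum, fits of the compared groups only and leaving out each replicate.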

Additional observations from a re-analysis of the deposited data

Results flagged for a closer look

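The difference between MePipHCA and desmosterol was itself different in macrophages and hepatocytes for 13 of the 19 always-named genes reported here, by an interaction in edgeR's quasi-likelihood test with Benjamini-Hochberg adjustment over 13700 genes. Values are the macrophage difference minus the hepatocyte difference on the log2 scale.

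Among genes of LXR response and lipid synthesis the interaction was 2.21 ± 0.10 for Abca1, 2.55 ± 0.53 for Abcg1, 0.69 ± 0.12 for Srebf1, 1.96 ± 0.13 for Scd1, 1.20 ± 0.12 for Fasn and 3.34 ± 0.37 for Soat2. In each the MePipHCA level relative to desmosterol was higher in macrophages. Abcg1 was under 1 CPM in every hepatocyte library of these groups, and its interaction was not called in thinned libraries (adjusted p = 0.121).

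For Sqle, in sterol synthesis, the interaction was -0.76 ± 0.14, so it was lowered further in macrophages. In the stress response it was 0.91 ± 0.20 for Ddit3, 2.32 ± 0.19 for Trib3, 3.16 ± 0.32 for Chac1 and 1.97 ± 0.18 for Asns. Ddit3 was not called without hepatocyte MePipHCA replicate 2 (0.59, adjusted p = 0.0621), and the 2 hepatocyte libraries with MePipHCA were 57.2 and 35.5 CPM.

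For Ccl2 the interaction was -3.32 ± 0.45 and for Mki67 -1.67 ± 0.30, and stromal markers moved with both in macrophages. Mylip, Insig1, Hmgcs1, Il1a, Acta2 and Csf1r did not pass in edgeR, which does not show that their differences were alike, and Il1a passed under DESeq2 (1.76, adjusted p = 0.0447). In hepatocytes Il1a was near the lower limit of detection, at 0.451 and 0.624 CPM with desmosterol and 0.331 and 0.265 with MePipHCA. Hepatocyte means were also low for Mylip (0.399 CPM with desmosterol and 0.680 with MePipHCA) and Acta2 (0.225 and 0.04135).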

How the results depend on the processing

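Of 104 named genes, 76 kept their call and direction in the comparison of MePipHCA with desmosterol in macrophages under all 16 alternatives, and none reversed. In the other comparisons the alternatives were followed by gene for the 20 fixed symbols only, and none of these reversed. Genes chosen after their values were seen were not followed through the alternatives. A test against a 1.5-fold minimum left 127 genes higher and 481 lower. It also left fewer list members. Lower members numbered 8 for the cell cycle, 3 for post-squalene synthesis, 3 for clearance, 2 for MHC class II and 1 for interferon. Higher members numbered 4 for tRNA synthetases, 4 for serine, one-carbon and proline synthesis and 3 for amino acid transporters. Leaving out 1 library gave 1352 to 1568 higher and 1428 to 1734 lower. For MePipHCA against vehicle that range was 1619 to 1820 higher and 1658 to 2014 lower, against DMHCA 985 to 1143 and 1019 to 1229, and for the interaction 486 to 623 and 536 to 656. Desmosterol against vehicle gave 354 higher and 304 lower genes in libraries thinned to 1 depth, and 353 to 564 higher and 312 to 478 lower when 1 library was left out, lowest without vehicle replicate 2. In hepatocytes a fit of the compared groups only gave 622 higher and 696 lower, and leaving out 1 library gave 123 to 173 and 208 to 284, where the lone sample is assumed to vary like the other groups. The interaction called 442 genes lower in thinned libraries against 696. Thinning and left-out libraries reduce the counts or samples tested, and for the other settings the cause was not tested.

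Correlations between libraries did not settle whether replicate numbers pair them, and cannot exclude shared animals or cultures. Deviations of same-numbered MePipHCA and desmosterol libraries correlated at -0.02, -0.03 and 0.09. Those of desmosterol and vehicle correlated at 0.28, 0.12 and -0.10, and those of MePipHCA and DMHCA at 0.06, 0.01 and 0.04. A replicate block gave 1706 higher and 1844 lower. Among MePipHCA and desmosterol libraries, with 3 pairs, not every sample correlated best with its own number. Beside the losses given above, Ccl7, Mcoln1 and Angptl4 lost their call when 1 replicate was left out. Ifit2 lost its call in 4 of these settings, under limma voom and in thinned libraries (adjusted p = 0.0698). Depth limits such calls: Fdps, Ifit2 and Ciita were not called once libraries were thinned to 1 depth.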
